A study of Mus musculus with 8 samples.

Results

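A set of 10 genes that mark hepatic stellate cells or build the liver's collagenous matrix were followed in whole liver as a check for early fibrosis: Col1a1, Col1a2, Col3a1, Lum, Dcn, Ecm1, Timp1, Acta2, Des and Pdgfrb. They were chosen by name, and each was read by its brightest probe on the array, so 10 genes are described out of 16593 with a named probe. All 10 lay above background on all 8 arrays and were tested. The 8 liver samples came from female C57BL/6 mice of 3 weeks, 4 from mice carrying the ∆F508 change in Cftr, the chloride channel gene of cystic fibrosis (CF), and 4 from wild-type (WT) littermates. Weaning, at 21 days, moved both genotypes to an enriched chow and to drinking a half-strength osmotic laxative (polyethylene glycol with electrolytes), and livers were taken at 23 days, so neither group stands for an untreated mouse. The labels number the replicates without stating that each is a separate animal, so p-values measure the spread between these samples. Total RNA was read on single-colour bead arrays. Before any result, 2 arrays stood apart: exocrine pancreas markers reached a mean log2 level of 12.49 in WT 3 and 12.04 in CF 1 and lay between 6.96 and 10.06 on the other arrays, and the same pair separated on the second principal component.

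Stellate cells lie between hepatocytes and the sinusoidal endothelium, where the quiescent cell stores retinoid. After injury they can become contractile myofibroblasts that secrete fibrillar collagen, and transforming growth factor beta and platelet-derived growth factor are the best known signals of that switch. A fibrotic liver typically shows more collagen I and III, smooth muscle actin, Timp1 and Pdgfrb transcript together. In people with cystic fibrosis the liver disease is a focal biliary fibrosis.

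In all, 3 of the genes differed between the genotypes, and these did not include the fibrillar collagens. Ecm1 and Dcn rose in CF livers, Lum fell, and the other 7 did not pass the test (limma with Benjamini-Hochberg adjustment over 12937 probes, threshold 0.05). Over all 9154 genes tested, 19.8% passed, 11.0% higher in CF and 8.78% lower, so with 10 genes a count of 3 does not set them apart. Counted over probes, 19.1% passed, 10.3% higher in CF and 8.79% lower. The same 3 genes were those whose CF and WT arrays did not overlap, where 24.4% of all genes tested had no overlap. The median difference over the 10 genes was -0.09 on the log2 scale, beside 0.02 over all genes tested, and the median size of the difference was 0.24 beside 0.14. These are bulk samples, so fewer cells of a type and less RNA per cell cannot be told apart.

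**Figure D1:**
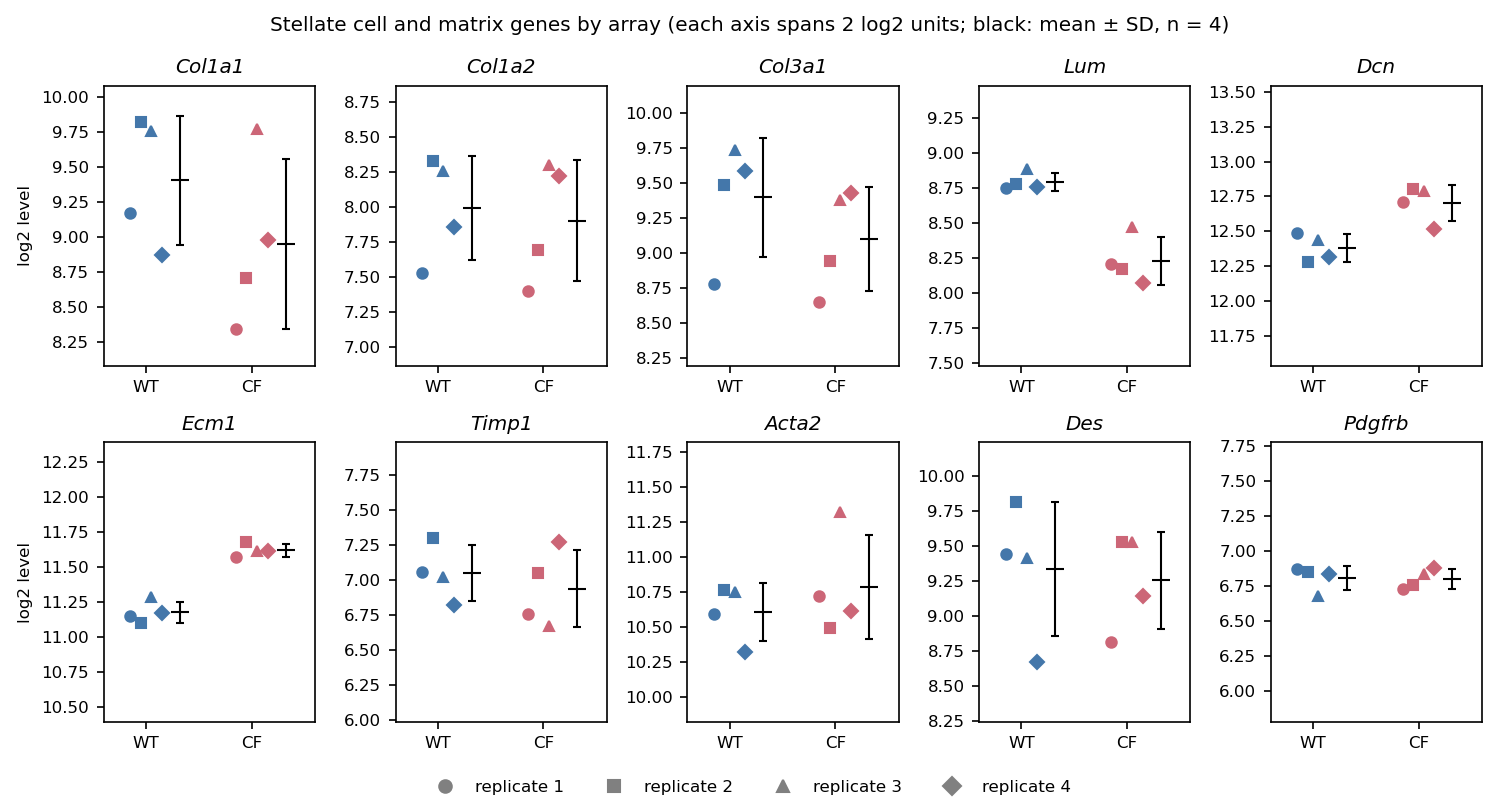
Log2 level of each gene on each array (y axis, log2 level; x axis, genotype; symbols, replicate number, not taken to pair samples; black, mean ± SD, n = 4). The CF arrays lie above the WT arrays for Dcn and Ecm1 and below them for Lum, and the genotypes overlap for the other 7 genes.

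The letters before the starts of Col1a2 and Col3a1 are shown, with those of Ecm1, the clearest rise among the 10 genes. The windows are 300 bases, 250 before the start of the gene and 50 after it, from RefSeq on GRCm38.p6. An entry was matched for 6 of the 10 genes, and Col1a1 was not among them. Capitals mark 4 motifs searched on both strands, with no overlap among the matches: the TATA box as TATAAA, the box bound by the factor NF-Y as CCAAT, the GC box of the factor Sp1 as GGGCGG, and the motif of the factor AP-1 as TGANTCA.
Col1a2 promoter, chr6:4505368-4505667, plus strand: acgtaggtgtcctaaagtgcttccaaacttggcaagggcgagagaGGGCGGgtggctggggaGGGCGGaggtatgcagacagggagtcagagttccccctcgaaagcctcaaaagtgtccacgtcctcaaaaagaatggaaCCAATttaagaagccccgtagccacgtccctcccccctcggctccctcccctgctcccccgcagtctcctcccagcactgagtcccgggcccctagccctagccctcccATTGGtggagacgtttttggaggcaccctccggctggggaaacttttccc
Col3a1 promoter, chr1:45311288-45311587, plus strand: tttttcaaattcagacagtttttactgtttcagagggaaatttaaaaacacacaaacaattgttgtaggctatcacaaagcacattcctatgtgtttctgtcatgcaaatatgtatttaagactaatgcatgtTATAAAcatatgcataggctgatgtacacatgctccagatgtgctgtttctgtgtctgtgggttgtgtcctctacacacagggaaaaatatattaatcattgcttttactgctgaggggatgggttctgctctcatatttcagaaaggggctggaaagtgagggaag
Ecm1 promoter, chr3:95739520-95739819, minus strand: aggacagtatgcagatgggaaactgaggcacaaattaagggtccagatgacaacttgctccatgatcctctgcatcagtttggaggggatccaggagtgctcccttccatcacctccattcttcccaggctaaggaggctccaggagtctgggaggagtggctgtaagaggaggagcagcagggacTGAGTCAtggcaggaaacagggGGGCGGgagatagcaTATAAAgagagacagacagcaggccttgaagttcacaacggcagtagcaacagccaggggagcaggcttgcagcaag

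The Col1a2 window held the NF-Y box and the GC box, each in 2 copies, and had a GC content of 61%. One NF-Y box lay 109 bases before the start, and the other, on the opposite strand, at the start itself. The Col3a1 window, at 37.7% GC, held only a match to the letters TATAAA, 117 bases before the start. The Ecm1 window held the TATA box 27 bases, the GC box 42 bases and the AP-1 motif 64 bases before the start. Among 32851 such windows of the genome, the TATA box was in 13.6%, the NF-Y box in 37.4%, the GC box in 35.7% and the AP-1 motif in 7.81%. Col1a2 and Col3a1 shared none of these motifs in the windows searched, and a link between motifs and levels was not tested.

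Col1a1 and Col1a2 encode the chains of collagen I, the main fibril of scar tissue. Col1a1 was at log2 9.17, 9.82, 9.76 and 8.87 in WT 1 to WT 4 and at 8.34, 8.71, 9.77 and 8.98 in CF 1 to CF 4. The genotypes overlapped, with CF 3 as high as the upper WT arrays and CF 1 the lowest of all. The difference, CF minus WT, was -0.45 ± 0.31 SE with a 95% interval from -1.14 to 0.24, and it did not pass (limma, adjusted p = 0.345). Col1a2 was at 7.53, 8.33, 8.26 and 7.86 in WT and at 7.40, 7.69, 8.30 and 8.22 in CF, again with CF 1 lowest and with full overlap. Its difference was -0.09 ± 0.23 SE, with an interval from -0.62 to 0.43 (adjusted p = 0.824).

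Col3a1 encodes collagen III, which is laid down with collagen I in early scars. It was at 8.78, 9.49, 9.74 and 9.59 in WT and at 8.65, 8.94, 9.38 and 9.43 in CF. The difference of -0.30 ± 0.23 SE had an interval from -0.82 to 0.22 (adjusted p = 0.411). A dimmer Col3a1 probe, above background on 4 arrays, gave 0.03. The upper ends of the 95% intervals, each for 1 gene alone, were 0.24 for Col1a1, 0.43 for Col1a2 and 0.22 for Col3a1. The wide intervals came from spread within the genotypes. The mean of the 3 genes was lowest in WT 1 among the WT arrays at 8.49 and lowest in CF 1 among the CF arrays at 8.13, and highest in WT 3 at 9.25 and CF 3 at 9.15.

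Lum and Dcn encode lumican and decorin, small leucine-rich proteoglycans that bind collagen fibrils, and they moved in opposite directions. Lum was at 8.75, 8.78, 8.89 and 8.76 in WT and at 8.21, 8.17, 8.47 and 8.07 in CF. Every CF array lay below every WT array, and the WT arrays were tight. Lum was 8.79 ± 0.06 (SD, n = 4) in WT and 8.23 ± 0.17 in CF, 1.48-fold lower (difference -0.56 ± 0.09 SE, limma adjusted p = 0.00305). Dcn was at 12.49, 12.28, 12.44 and 12.32 in WT and at 12.71, 12.80, 12.79 and 12.52 in CF. The genotypes did not overlap, but WT 1 and CF 4 differed by only a few hundredths. Dcn rose 1.25-fold (difference 0.32 ± 0.08 SE, limma adjusted p = 0.0263), and a second Dcn probe differed by 0.35 without passing (adjusted p = 0.0823).

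The call on Dcn was not stable. It was lost in 6 of 8 leave-one-out fits (limma adjusted p = 0.0675, 0.0528, 0.0665, 0.0584, 0.0655 and 0.0636 without WT 2, WT 3, WT 4, CF 1, CF 2 and CF 3), while the difference stayed between 0.29 and 0.38. Lum kept its call in each of those fits, with differences from -0.64 to -0.51.

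Ecm1 encodes extracellular matrix protein 1, a secreted glycoprotein that hepatocytes also make and that, in mice, holds latent transforming growth factor beta inactive. It was at 11.15, 11.10, 11.28 and 11.17 in WT and at 11.57, 11.68, 11.61 and 11.61 in CF. All CF arrays lay above all WT arrays, with little spread in either group. The means were 11.17 ± 0.08 (SD, n = 4) in WT and 11.62 ± 0.05 in CF, a 1.36-fold rise (difference 0.44 ± 0.06 SE, limma adjusted p = 0.00194). A dimmer second probe gave 0.40 ± 0.12 SE and was called as well (limma adjusted p = 0.0477). That second call was lost when any array other than WT 4 or CF 4 was dropped, while the brighter probe kept its call in each of those fits. Which cell type carried the rise was not tested.

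Timp1 encodes a tissue inhibitor of metalloproteinases that protects new collagen from breakdown. It was at 7.06, 7.30, 7.02 and 6.82 in WT and at 6.76, 7.05, 6.67 and 7.27 in CF. The arrays were interleaved, the difference was -0.11 ± 0.14 SE with an interval from -0.44 to 0.21, and a second probe gave -0.09. Pdgfrb encodes the receptor for platelet-derived growth factor B that stellate cells share with pericytes. Its probe was dim, at 6.87, 6.85, 6.68 and 6.84 in WT and at 6.73, 6.76, 6.84 and 6.88 in CF, against a background level of 6.46. The difference was -0.01 with an interval from -0.16 to 0.15, but a probe this close to background understates differences.

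**Figure D2:**
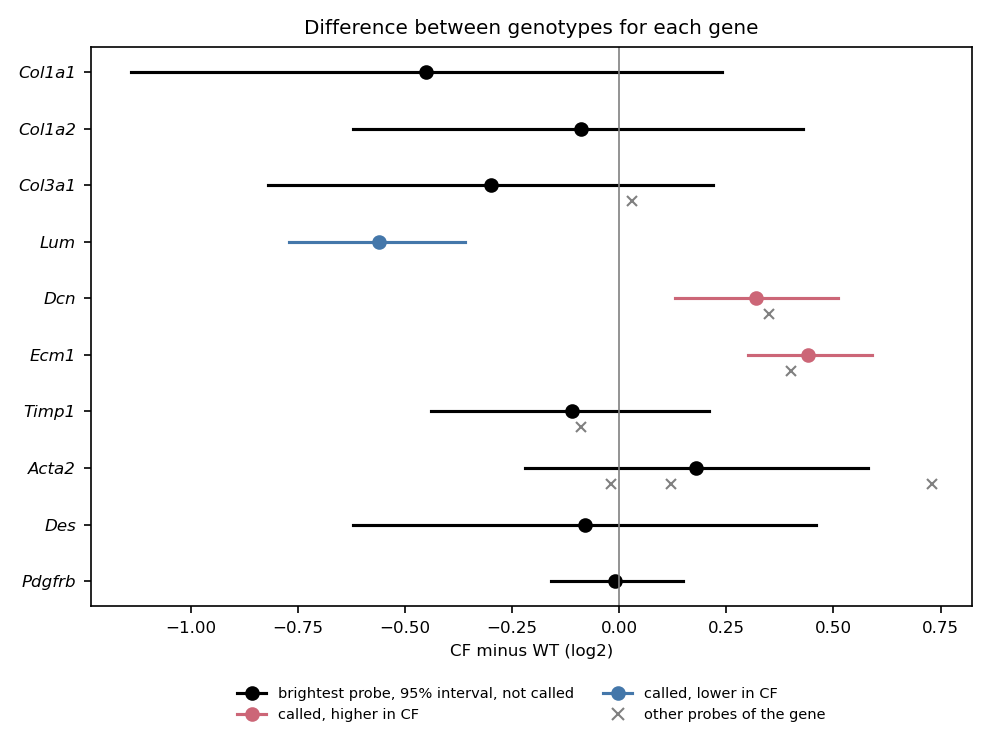
Difference between genotypes for each gene (x axis, CF minus WT in log2; points, brightest probe; lines, 95% interval of the limma fit; crosses, other probes of the same gene). Lum lies below 0 and Dcn and Ecm1 above it, while the intervals of the other 7 genes span 0 and 1 of the 3 further Acta2 probes stands at 0.73.

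Acta2 encodes smooth muscle alpha-actin, carried by vessel walls in the normal liver and by activated stellate cells. Its brightest probe was at 10.59, 10.76, 10.75 and 10.32 in WT and at 10.72, 10.49, 11.32 and 10.61 in CF. Only CF 3 stood clear of the WT arrays, and the difference of 0.18 ± 0.18 SE did not pass (interval -0.22 to 0.58). A second Acta2 probe was at 8.07, 8.31, 8.31 and 7.92 in WT and at 8.74, 8.41, 9.54 and 8.84 in CF. On this probe the genotypes did not overlap, and it rose 1.66-fold (difference 0.73 ± 0.21 SE, limma adjusted p = 0.0381). That call was lost on dropping any single array other than CF 2 or CF 3 (limma adjusted p of up to 0.0914), while the difference stayed between 0.51 and 0.89. The other 2 probes differed by 0.12 and -0.02 and did not pass, so the 4 probes annotated to Acta2 did not give the same answer.

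Actg2, the gamma smooth muscle actin of the gut wall and a close paralog, had a pattern like that second probe. It was at 7.68, 7.88, 8.03 and 7.43 in WT and at 8.97, 8.06, 9.38 and 8.32 in CF, and it rose 1.90-fold (difference 0.93 ± 0.27 SE, limma adjusted p = 0.0381). CF 3 was the highest array and WT 4 the lowest on the Actg2 probe and on the 2 brightest Acta2 probes. The Actg2 call was lost on dropping any single array other than CF 2 or CF 4 (limma adjusted p of up to 0.0919). Whether the second Acta2 probe also reads Actg2 was not tested, since probe sequences were not analysed here.

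**Figure D3:**
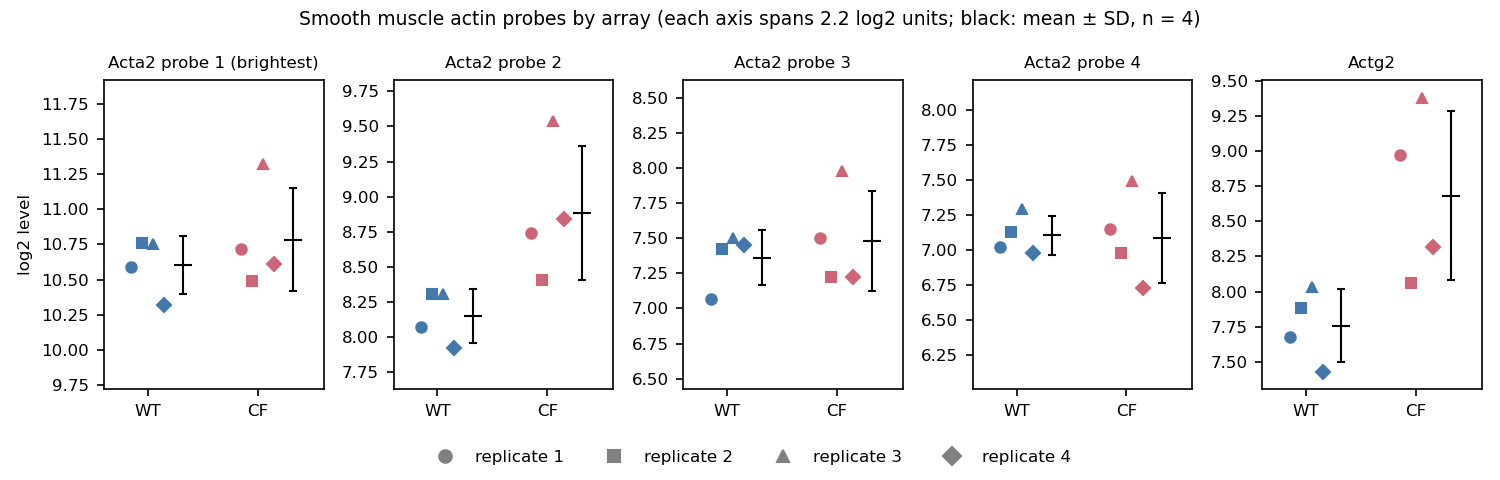
Log2 level by array of the 4 probes annotated to Acta2, from brightest to dimmest, and of Actg2 (y axis, log2 level; x axis, genotype; black, mean ± SD, n = 4). The genotypes separate on Acta2 probe 2 and on Actg2, and overlap on the other 3 Acta2 probes, and CF 3 is the highest array in every panel.

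Des encodes desmin, an intermediate filament of stellate cells that is also abundant in striated muscle. It was at 9.44, 9.81, 9.41 and 8.67 in WT and at 8.81, 9.53, 9.53 and 9.14 in CF. The genotypes overlapped, with a difference of -0.08 ± 0.24 SE and an interval from -0.62 to 0.46. Of 11 skeletal muscle markers with a probe 10 were above background on all 8 arrays and Myh4, a fast myosin heavy chain, on 7, and Acta1, the skeletal muscle actin, was at 12.26 to 13.43 in WT and 12.10 to 13.07 in CF. The mean of the 11 markers was 10.59, 11.14, 10.25 and 9.81 in WT and 9.34, 10.51, 10.44 and 9.98 in CF. Within each genotype Des and this mean ranked the arrays in the same order, highest in WT 2 and CF 2 and lowest in WT 4 and CF 1. The part of muscle transcripts in the Des signal was not tested, and 0 of the 11 muscle markers passed between genotypes (limma), with unadjusted p under 0.05 for 1, Pvalb. Of their differences 10 were negative and 1 positive, with a median of -0.34. The count called lower in CF was 1 without WT 4 and 1 without CF 2.

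**Figure D4:**
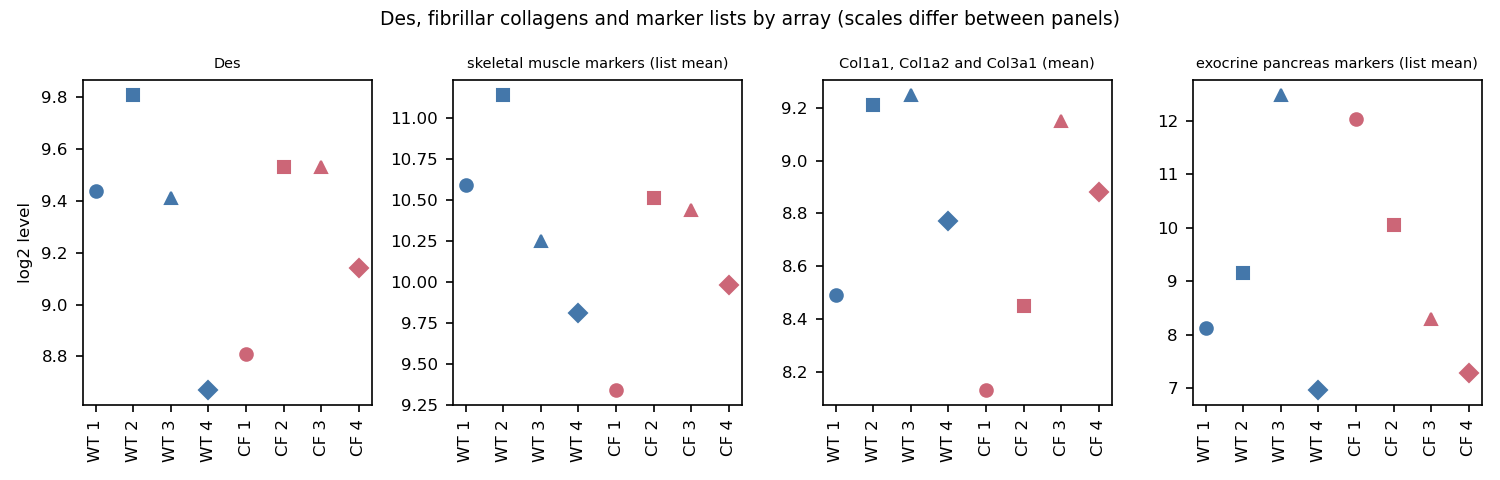
Log2 level on each array of Des, of the mean of 11 skeletal muscle markers, of the mean of Col1a1, Col1a2 and Col3a1, and of the mean of 11 exocrine pancreas markers (y axes, log2 level on scales that differ; blue, WT; red, CF). Des and the muscle markers rank the arrays alike within each genotype, and WT 3 and CF 1 stand highest for the pancreas markers at 12.49 and 12.04.

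Markers of other cells bear on how these values are read. With WT 3 and CF 1, the arrays rich in pancreas transcripts, both dropped, Lum and Ecm1 were still called (differences -0.53 and 0.49) and Dcn was not (limma adjusted p = 0.107), while Col1a1 differed by -0.13, Col1a2 by 0.16 and Col3a1 by -0.03. Of 9 tested hepatocyte markers 1 rose, or 11.1% beside 19.8% of all genes tested. It was Ttc36, a call lost without WT 1, WT 3, CF 2, CF 3 or CF 4. The mean of the 9 was 12.06 to 12.18 in WT and 12.15 to 12.27 in CF. The Cftr probe was under background in both genotypes and so checks no label.

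As with the 3 main fibrillar collagens, no other collagen of fibrils or microfibrils passed. Of 12 fibril, fibril-associated and microfibril collagen genes, 6 were tested and 0 passed (limma), although all 6 differences were negative with a median of -0.23, and unadjusted p was under 0.05 for 1, Col6a2. Col6a1, a microfibril collagen and the brightest of them, was at 9.64 ± 0.25 (SD, n = 4) in WT and 9.36 ± 0.27 in CF, and its 2 tested probes differed in sign. Among 13 tested basement membrane genes 1 rose and 2 fell, or 23.1% called beside 19.8% of all genes tested. Col15a1, a collagen of vascular basement membranes, was 7.49 ± 0.12 (SD, n = 4) in WT and 6.96 ± 0.12 in CF without overlap, and it fell 1.45-fold (limma adjusted p = 0.00318). Lama1, a laminin chain, fell by 0.52 (SE 0.09), and Nid1, the linker nidogen, differed by 0.34 ± 0.09 SE with its call lost without WT 3, WT 4, CF 3 or CF 4. Col18a1, a collagen of basement membranes that hepatocytes make, differed by -0.07 and did not pass.

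Matrix glycoproteins and proteoglycans went both ways. Of 11 tested glycoproteins 1 rose and 1 fell, or 18.2% called beside 19.8% of all genes tested. Thbs2, thrombospondin 2, was at 7.26, 7.29, 7.23 and 6.90 in WT and at 7.84, 7.72, 8.42 and 8.21 in CF. All CF arrays were higher, and it rose 1.84-fold (difference 0.88 ± 0.16 SE, limma adjusted p = 0.00533). Fbln1, fibulin 1, fell by 0.49 (SE 0.13), a call lost on dropping any single array other than WT 4 or CF 3 (limma adjusted p of up to 0.0763). Vtn, the plasma protein vitronectin, differed by 0.02. Among 9 tested proteoglycans 1 rose and 1 fell, or 22.2% beside the same 19.8%. Prelp, a leucine-rich relative of lumican, was at 11.06 ± 0.10 (SD, n = 4) in WT and at 10.22, 10.55, 10.21 and 10.52 in CF. It was lower on every CF array, as Lum was, and fell 1.61-fold (difference -0.69 ± 0.10 SE, limma adjusted p = 0.00189). Bgn, biglycan, differed by -0.19 without passing, and Sdc4, the syndecan 4 of cell surfaces, rose by 0.29 (SE 0.09), a call that held only on dropping WT 3 or CF 1.

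Of 11 tested genes that process or crosslink collagen, 1 rose and 4 fell, beside 11.0% and 8.78% of all genes tested. The 4 falls include Serpinh1, which passed the background filter only through its WT arrays, so the count is not free of that filter. Tgm2, the crosslinking transglutaminase 2, was at 11.61, 11.28, 11.20 and 11.43 in WT and at 10.57, 10.94, 10.34 and 10.86 in CF. It fell 1.62-fold, with no overlap (difference -0.70 ± 0.14 SE, limma adjusted p = 0.00925). Serpinh1, the collagen chaperone, was 6.73 ± 0.10 (SD, n = 4) in WT and under background on all 4 CF arrays. That makes it lower by at least 0.26 on the log2 scale (limma adjusted p = 0.0194 with values floored at background). The floor makes all 4 CF values equal. Serpinh1 as measured differed by -0.48 (limma adjusted p = 0.00162). Serpinh1 entered the test only through its WT arrays, so it was not tested when any single WT array was dropped or background was set more strictly. With no filter on dim probes it was called too (limma adjusted p = 0.00119). Plod3, a lysyl hydroxylase, fell by 0.48 (SE 0.12), Pcolce, an enhancer of procollagen trimming, by 0.45 (SE 0.13), while Bmp1, the trimming protease, rose by 0.35 (SE 0.10). Plod3 lost its call without WT 1, WT 2 or WT 3, Pcolce without any array but WT 3, and Bmp1 without any but WT 2 or CF 3. The mean level of this list was lower on every CF array (8.56 to 8.69) than on any WT array (8.77 to 8.91). That mean includes the 5 called genes, so it is not separate from their calls. The list's count of 5 became 1 without WT 1, 2 without any other WT array, 3 without CF 2 or CF 4, 2 with WT 3 and CF 1 both dropped, and 3 with no filter on dim probes. P4hb, the protein disulfide isomerase subunit of prolyl hydroxylase, differed by 0.08.

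**Figure D5:**
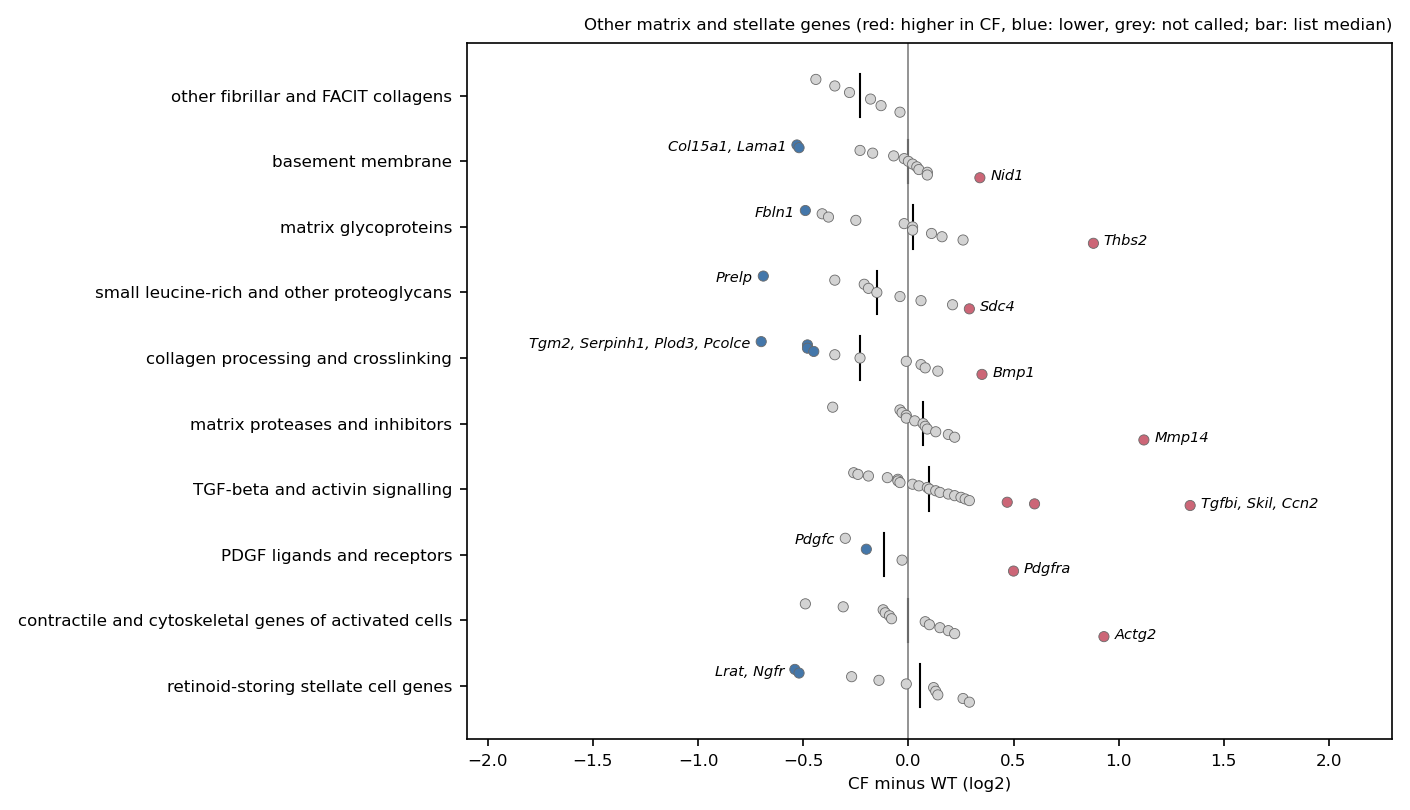
Difference between genotypes of the tested genes in 10 lists of matrix and stellate cell genes (x axis, CF minus WT in log2; 1 point per gene, with names of the called genes in order of difference; bar, list median). Ccn2 and Mmp14 stand farthest to the right at 1.34 and 1.12, and the 6 points of the other collagens are all grey and below 0.

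The largest differences among these lists were those of Ccn2 and Mmp14, followed by Actg2 (0.93) and Thbs2 (0.88). Of 21 tested genes of transforming growth factor beta and activin signalling 3 rose and 0 fell. Ccn2, the connective tissue growth factor, was at 9.49, 9.68, 9.52 and 9.38 in WT and at 10.91, 10.68, 11.07 and 10.78 in CF. Every CF array was far above every WT array, and Ccn2 rose 2.53-fold (difference 1.34 ± 0.10 SE, limma adjusted p = 7.07e-05). Skil, a SMAD corepressor that the pathway induces, rose 1.51-fold (0.60 ± 0.11 SE), and Tgfbi, a secreted target of the pathway, rose 1.38-fold (0.47 ± 0.07 SE). These 3 calls held in each leave-one-out fit.

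The ligands and transducers of the pathway did not pass. Tgfb1, the main ligand in fibrosis, differed by 0.27 (adjusted p = 0.136), and Tgfbr1 and Tgfbr2, its receptors, by 0.19 and 0.22. The SMAD genes Smad2 and Smad3 differed by -0.26 (limma adjusted p = 0.0525) and -0.19, and Smad4, the shared SMAD, by -0.05. With 3 of 21 genes passing, or 14.3% beside 19.8% of all genes tested, the list as a whole did not stand out. Its mean level, which includes the 3 called genes, was higher on every CF array (8.21 to 8.28) than on any WT array (8.03 to 8.14). The median difference over the 21 genes was 0.10, with 14 differences positive and 7 negative.

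Among 13 tested matrix proteases and inhibitors 1 rose and 0 fell, or 7.69% called beside 19.8% of all genes tested. Mmp14, the membrane-bound metalloproteinase that cleaves fibrillar collagen and activates Mmp2, was at 9.68, 9.51, 9.34 and 9.41 in WT and at 10.62, 10.60, 10.52 and 10.67 in CF. The groups were far apart, and Mmp14 rose 2.17-fold (difference 1.12 ± 0.08 SE, limma adjusted p = 7.07e-05). Mmp2, a gelatinase, differed by 0.13, and the inhibitors Timp2 and Timp3 by 0.19 and 0.22, none of them passing. Timp3 was at 8.92, 9.12, 8.78 and 10.06 in WT and at 9.35, 9.38, 9.59 and 9.43 in CF. On its probe WT 4 lay above all CF arrays and the other WT arrays below them. Without WT 4 the list had 2 rises.

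Platelet-derived growth factor genes gave 1 rise and 1 fall among 4 tested. Pdgfra, the alpha receptor of fibroblast-like cells, was at 7.79 to 8.11 in WT and at 8.35, 8.29, 8.96 and 8.32 in CF, a difference of 0.50 ± 0.15 SE (limma adjusted p = 0.0439). Pdgfc, a ligand, differed by -0.20 ± 0.06 SE. Pdgfra kept its call only on dropping CF 2 or CF 3, and Pdgfc only on dropping CF 4. Pdgfa, the brightest ligand, differed by -0.30 and did not pass. Of 12 tested contractile and cytoskeletal genes of activated cells only Actg2 passed, or 8.33% beside 19.8% of all genes tested. Tagln (-0.11), Vim (-0.12) and Tpm2 (-0.09) did not pass. Tpm2 is a striated muscle gene as well.

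Among 10 tested genes of the retinoid-storing stellate cell 0 rose and 2 fell. With 19.8% of all genes tested passing, a count of 2 in 10 does not set this list apart. Of its differences 5 were positive and 5 negative, with a median of 0.05. Lrat, the enzyme that esterifies retinol for storage, was at 8.26, 7.54, 7.67 and 7.93 in WT and at 7.31, 7.37, 7.28 and 7.27 in CF. All CF arrays were lower and close together, and it fell 1.46-fold (difference -0.54 ± 0.14 SE, limma adjusted p = 0.0248). Ngfr, the neurotrophin receptor p75 of stellate cells, was at 7.60, 7.45, 7.40 and 7.27 in WT and at 6.71, 7.04, 6.81 and 7.09 in CF, a 1.43-fold fall (-0.52 ± 0.10 SE, limma adjusted p = 0.00911). Reln, the reelin made by stellate cells, differed by 0.29 and Cygb, their cytoglobin, by 0.12, and neither passed. Lrat lost its call without WT 4, CF 1, CF 3 or CF 4. With WT 3 and CF 1 both dropped neither was called (limma adjusted p = 0.0694 for Lrat and 0.0550 for Ngfr). Gfap and Hand2, both stellate markers, were not above background on enough arrays to be tested, and neither were Steap4, Lhx2 and Bmp10.

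Some markers of the neighbouring sinusoidal cells passed as well. Of 11 tested endothelial markers 3 rose and 0 fell, or 27.3% called beside 19.8% of all genes tested. The mean level of the 11, which includes the 3 called, was 8.74 to 8.87 in CF and 8.46 to 8.59 in WT. Lyve1, a hyaluronan receptor of sinusoidal and lymphatic endothelium, was at 8.55, 8.39, 8.28 and 8.17 in WT and higher on all CF arrays, a 2.56-fold rise (difference 1.35 ± 0.12 SE, limma adjusted p = 0.000188). Its CF mean was 9.70. Vwf, the von Willebrand factor, rose by 0.48 (SE 0.07) and Oit3, a gene of liver sinusoidal endothelium, by 0.31 (SE 0.06), the last with its call lost without WT 3 and CF 1 (limma adjusted p = 0.0666), while Pecam1 (0.22), Cdh5 (0.11) and Tek (-0.03) did not pass. Of 9 tested Kupffer cell and macrophage markers 1 rose, or 11.1%, the scavenger receptor gene Marco (1.08 ± 0.30 SE), with a list mean of 9.04 to 9.31 in WT and 9.19 to 9.81 in CF. That call was lost without WT 3, WT 4, CF 1, CF 3 or CF 4. The part of these cells in the rises of Ccn2, Mmp14 and Ecm1 was not tested.

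Of 8 tested portal fibroblast and mesothelial markers 0 rose and 1 fell, or 12.5% called beside 19.8% of all genes tested. Their list mean was 7.47 to 7.59 in WT and 7.23 to 7.54 in CF. The faller was Upk3b, a mesothelial uroplakin (-0.55 ± 0.16 SE, limma adjusted p = 0.0380), which lost its call without WT 1, WT 2, WT 3, CF 1 or CF 3. Of 5 tested cholangiocyte markers 0 passed (limma), with 0 at unadjusted p under 0.05, and the list mean was 7.55 to 7.81 in WT and 7.53 to 7.73 in CF. Krt19, the keratin of bile ducts, differed by 0.01 and Sox9, the ductal transcription factor, by 0.13.

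The genes whose levels followed the fibrillar collagens most closely over the arrays were found from deviations from the genotype mean, over 8 arrays, against the mean deviation of Col1a1, Col1a2 and Col3a1. The 8 closest were Tgfb3, Tmtc4, Asb8, Timp2, Skint3, Ndfip2, Tspan2 and Gosr2, with Pearson r of 0.953 to 0.973. They were picked as the highest of about as many values as there are genes tested, so no p is given. Tgfb3, Tmtc4, Skint3 and Tspan2 lay close to the background level on every array. Timp2, an inhibitor of metalloproteinases, was at 9.04, 9.33, 9.32 and 9.15 in WT and at 9.24, 9.27, 9.66 and 9.43 in CF, lowest in WT 1 and CF 1 and high in CF 3, as the collagens were.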

How the data were processed

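Whole-liver RNA from 4 CF and 4 WT samples was measured on single-colour bead arrays, with GenomeStudio named in the submitters' processing notes. The deposited values are log2 expression of 25697 probes on 8 arrays, with 0 missing. Their sorted values were equal between arrays to within 0.000351, so the authors had quantile-normalized them, which removes shifts in total signal. The background correction and exact transform are not given in the sources used here. The scanner table (32 columns named by chip position) could not be matched to samples and was not used. Arrays have no read depth, so their number limits the precision.

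Gene names came from the platform annotation, and older symbols were matched through RefSeq synonyms. Background was set at 6.46, from the mode of all values and the spread of the values below that mode, and the test covered the 12937 probes exceeding it on 4 or more arrays. Each gene was read by its probe of highest mean. Differences were tested with limma's moderated linear model (version 3.58.1, R 4.3.3), two-sided, with genotype alone in the model. P-values were adjusted by Benjamini-Hochberg across those probes, and 0.05 was the threshold. The code was tested on simulated data. Genes and lists were chosen with earlier results of these data known. Named genes are the 10 genes, up to 4 genes past the threshold in each pathway list in order of adjusted p with the gene of highest mean, up to 3 in each cell type list, and the 8 genes most like the collagens; any further gene was picked with its values known. Replicate numbers occur in both genotypes, but no label states that they pair samples, and they were not taken to do so. Deviations of equal-numbered samples correlated at -0.33, 0.06, -0.29 and 0.09. Replicates 1 and 3 hold CF 1 and WT 3, the arrays rich in pancreas transcripts, so these values cannot decide whether samples were paired. Alternatives covered the filter on dim probes, the background level, a replicate block, array weights, the variance prior, cyclic loess, a floor, other probes of a gene and omission of arrays.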

Additional observations from a re-analysis of the deposited data

Results flagged for a closer look

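In 6 of the 104 groups of 4 arrays looked at, 1 array stood far from the other 3, where chance alone gives about 1 in 20. WT 3 was the lowest WT array for Pdgfrb at 6.68, with the next at 6.84. WT 4 was the lowest for Col6a1 at 9.27 (next 9.71) and for Thbs2 at 6.90 (next 7.23). WT 1 was the highest for Prelp at 11.21 (next 11.02) and WT 2 the highest for P4hb at 13.67 (next 13.52). CF 3 was the highest CF array for Pdgfra at 8.96, with the next at 8.35.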

How the results depend on the processing

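On their brightest probes Ecm1 and Lum kept their direction and call under every alternative tried, with single omissions giving 0.42 to 0.48 and -0.64 to -0.51. That second Ecm1 probe lost its call with no filter on dim probes, a replicate block, cyclic loess, floored values, both WT 3 and CF 1 dropped, and 6 of 8 single omissions (0.30 to 0.46). Dcn kept its direction but not its call with a replicate block (0.32), with cyclic loess (0.27), without WT 3 and CF 1 (0.34) and on its next brightest probe (0.35), and ranged from 0.29 to 0.38 as single arrays were left out. Between 2 and 3 of the 10 genes were called in every fit. The next brightest probe gave 0.73 for Acta2, now called, and 0.03 for Col3a1, the opposite sign. Without WT 3 and CF 1 the sign turned for Col1a2 (0.16), Des (0.10), Tpm2 (0.12) and Vtn (0.00), and Vtn was at -0.04 with cyclic loess and Pdgfrb at 0.01 with array weights. Leaving out single arrays gave -0.25 to 0.07 for Col1a2, -0.30 to 0.08 for Des, -0.05 to 0.01 for Pdgfrb, -0.09 to 0.02 for Smad4, -0.30 to 0.19 for Tpm2 and -0.03 to 0.06 for Vtn. None of these uncalled differences passed in those fits. The count of called probes, 2475, was 1441 with the replicate block and 1061 without WT 3 and CF 1, and 1576 to 2061 as single arrays were left out. In the 10 lists 21 genes were called, 11 without WT 3 and CF 1 and 12 to 18 as single arrays were left out. Fewer arrays per fit lower the power. Probes close to background, such as those of Pdgfrb and Serpinh1, bound what differences can be seen.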
